A study of Homo sapiens with 6 samples.

Results

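CD44, COL1A1, COL26A1, CDH4, FN1 and ACTA2 are genes of cell adhesion, the extracellular matrix and the actin cytoskeleton. They were taken by Ensembl identifier from a table of 674 genes, deposited by the authors as common to their comparisons of parental K562 cells with 2 imatinib-resistant derivatives, and all 6 were found in it. CD44, COL1A1, COL26A1, CDH4 and ACTA2 had positive log2 fold changes in both columns of the authors' deposited table, and FN1 had negative ones. Of the 674 genes, 0 had opposite signs in the columns, so agreement between columns is not particular to these 6. The positive sign was shared by the genes that encode a receptor, 2 collagens, a cadherin and an actin, and the exception encoded fibronectin.

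The groups were the lines IR1 and IR2, labelled imatinib-resistant and grown with imatinib continuously present, and the parental line WT, labelled imatinib-sensitive. K562 is an established line from a human chronic myeloid leukaemia, and its BCR-ABL1 fusion kinase is the target that imatinib inhibits. RNA was sequenced from 2 libraries per group, 6 in all, and the other library of each group is labelled as a repeat, with no statement that it came from a separate culture. No parental library is labelled as grown with the drug, so resistance and drug exposure cannot be told apart.

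Each value is a log2 fold change computed by the authors, in 2 columns whose header names end in x and y, here called column x and column y. The header names neither the resistant line of each column nor the numerator, so a positive value may mean higher or lower expression in the resistant line than in WT, and no direction of expression is given here. Values per library, errors, p-values and depth were not used here. No fold could therefore be set against the spread between libraries, and no difference was tested. Every listed gene exceeds 1.5 in absolute log2 fold change in both columns, and both columns rest on the same WT libraries, so a shared sign is not independent evidence for either line.

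The extracellular matrix is a mesh of collagens, glycoproteins such as fibronectin, and proteoglycans, to which cells attach through surface receptors. Integrins and CD44 bind matrix components, whereas cadherins bind cadherins on neighbouring cells, and the actin filaments under the membrane carry the force between these contacts. In blood-forming tissue, attachment of progenitors to marrow stroma through CD44 and through integrin receptors for fibronectin is known to hold immature cells in place, and CD44 is known to be needed for the homing of BCR-ABL1 leukaemic stem cells in mice.

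CD44 (ENSG00000026508, chromosome 11) encodes the main cell surface receptor for hyaluronan, a long sugar polymer of the matrix. The authors' deposited table gave it log2 fold changes of 4.53 in column x and 4.70 in column y, or 23.1-fold and 26.02-fold in size. The columns differed by 0.17, the smallest gap among the 6 genes. CD44 is known for alternative splicing of its stem region, and the table holds a single value for the gene, so its isoforms are not separated.

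COL1A1 (ENSG00000108821, chromosome 17) encodes the alpha1 chain of type I collagen, the main fibrillar collagen of bone, skin and tendon. In the authors' deposited table it had log2 fold changes of 4.39 in column x and 5.27 in column y, which are 20.96-fold and 38.7-fold. COL26A1 (ENSG00000160963, chromosome 7) encodes a secreted collagen described in mouse testis and ovary. The authors' deposited table gave it log2 fold changes of 3.70 in column x and 5.38 in column y, or 13.0-fold and 41.7-fold. The collagens thus stood next to each other near the top of column y but apart in column x, where COL1A1 was the higher by 0.69.

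CDH4 (ENSG00000179242, chromosome 20) encodes R-cadherin, a calcium-dependent adhesion protein best known from retina and brain. The authors' deposited table gave it log2 fold changes of 2.94 in column x and 3.85 in column y, or 7.69-fold and 14.4-fold. ACTA2 (ENSG00000107796, chromosome 10) encodes smooth muscle alpha-actin, the actin of contractile vessel wall cells and of myofibroblasts. The authors' deposited table gave it log2 fold changes of 2.09 in column x and 3.92 in column y, or 4.25-fold and 15.2-fold. ACTA2 had the lowest positive value of the 6 genes in column x, while in column y it stood 0.07 above CDH4.

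FN1 (ENSG00000115414, chromosome 2) encodes fibronectin, the matrix glycoprotein that integrins bind and that helps collagen fibres to assemble. It was the negative gene of the group, and the authors' deposited table held -2.34 in column x and -3.18 in column y on the log2 scale, or 5.06-fold and 9.07-fold in size. Its distance from the lowest positive member in the authors' deposited table was 4.43 on the log2 scale in column x and 7.03 in column y.

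**Figure D1:**
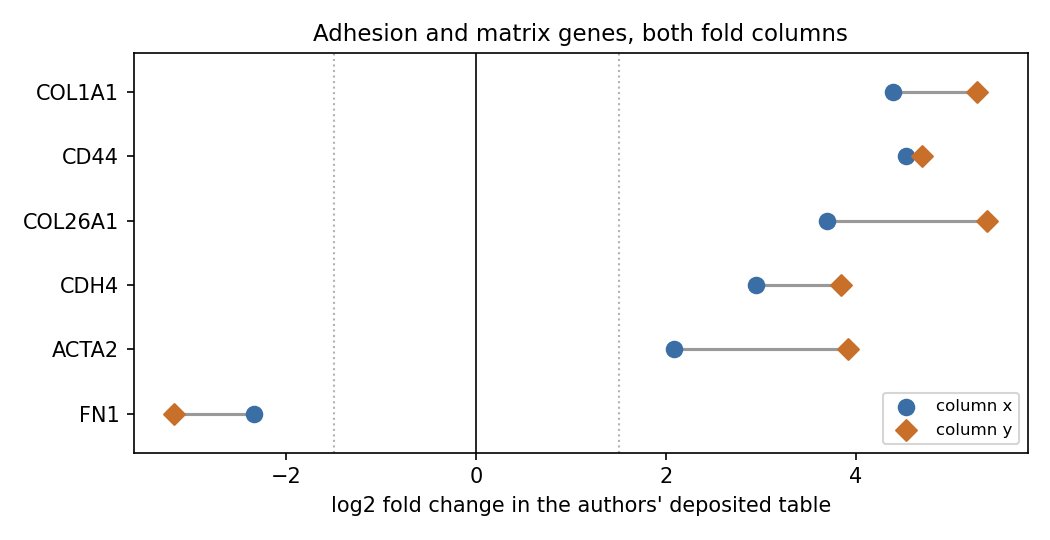
Log2 fold changes of the 6 genes (x axis) in column x (circles) and column y (diamonds) of the authors' deposited table; dotted lines mark the value of 1.5 that every listed gene exceeds in size. FN1 lies on the negative side in both columns and the other members on the positive side, with the widest gap between columns for ACTA2 and the narrowest for CD44.

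The sequence before the start is shown for CD44, COL26A1 and ACTA2, which share a sign, and for FN1, which has the other sign. CDH4, also positive, is not printed. Any link between these sequences and the sign was not tested. The set of RefSeq promoter windows used here covered 5 of the 6 genes and had no entry for COL1A1. It is on the build GRCh38.p14, which is not the authors' hg19. The starts named below are those of this set. Each line gives the 250 bases before a start, 5′ to 3′ on the strand of the gene. The windows are chr11:35138921-35139170 on the plus strand for CD44, chr7:101362625-101362874 on the plus strand for COL26A1, chr10:88952774-88953023 on the minus strand for the more downstream of 2 RefSeq starts of ACTA2, and chr2:215436069-215436318 on the minus strand for FN1. Capitals mark matches, on either strand, to 7 motifs, namely the TATA box (TATAA), the GC box (GGGCGG), the CCAAT box (CCAAT), the cyclic AMP response element (TGACGTCA), the AP-1 site (TGAGTCA), the strict CArG box and the CArG-like element. CArG boxes bind serum response factor. The strict form has only A or T at the 6 bases between its CC and GG ends, and the CArG-like element, a form added after the data were seen, has G or C at 1 of those 6. Overlapping GC boxes run together.
CD44: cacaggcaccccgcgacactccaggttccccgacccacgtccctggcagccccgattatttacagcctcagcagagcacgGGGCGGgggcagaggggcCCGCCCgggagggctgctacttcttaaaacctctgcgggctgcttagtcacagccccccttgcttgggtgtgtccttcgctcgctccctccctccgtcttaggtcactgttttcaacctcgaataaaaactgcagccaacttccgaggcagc
COL26A1: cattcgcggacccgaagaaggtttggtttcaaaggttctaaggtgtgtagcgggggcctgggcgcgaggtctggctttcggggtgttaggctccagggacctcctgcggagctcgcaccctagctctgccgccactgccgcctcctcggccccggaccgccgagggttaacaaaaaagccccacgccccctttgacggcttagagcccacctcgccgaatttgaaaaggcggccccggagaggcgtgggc
ACTA2: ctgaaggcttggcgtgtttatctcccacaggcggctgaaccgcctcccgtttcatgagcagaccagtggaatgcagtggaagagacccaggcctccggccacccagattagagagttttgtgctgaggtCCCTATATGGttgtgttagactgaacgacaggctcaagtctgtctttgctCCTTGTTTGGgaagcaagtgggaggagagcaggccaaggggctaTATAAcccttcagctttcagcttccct
FN1: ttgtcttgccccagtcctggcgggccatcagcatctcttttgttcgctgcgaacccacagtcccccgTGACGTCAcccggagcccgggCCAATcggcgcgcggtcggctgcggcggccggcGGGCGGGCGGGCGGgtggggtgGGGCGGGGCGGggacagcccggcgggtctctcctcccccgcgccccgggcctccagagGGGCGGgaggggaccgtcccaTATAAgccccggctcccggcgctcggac

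FN1 had the most matches, with 1 TATA box ending 24 bases before the start, 6 GC boxes, 1 CCAAT box and 1 cyclic AMP response element. Among all 35116 promoter windows of the same length, a TATA box occurred in 18.9%, a GC box in 42.6%, a CCAAT box in 32.0% and a cyclic AMP response element in 1.65%. The ACTA2 window held a TATA box 27 to 23 bases before the start and 2 CArG-like elements, at 121 to 112 and 71 to 62 bases before it, which are known as the serum response factor elements of this promoter. A CArG-like element occurred in 5.96% of all windows and in no other window of these genes. The window at the upstream ACTA2 start, not printed, held 1 TATA box 187 to 183 bases before it and 2 GC boxes. CD44 had 2 GC boxes, and neither COL26A1 nor the 2 RefSeq windows of CDH4 had a match. The CDH4 windows were chr20:61499171-61499420 and chr20:61599511-61599760, both on the plus strand. Whether either lies at the most upstream CDH4 start was not checked, so they do not describe every promoter of CDH4. The AP-1 site, found in 4.20% of all windows, and the strict CArG box, found in 1.16%, had no match in these windows, which says nothing about whether their factors bind. The G and C content of the windows shown was 76.4% for FN1, 64.8% for COL26A1, 62.4% for CD44 and 54.0% for ACTA2, where the median of all windows was 58.0%. For the windows not printed it was 58.4% and 63.6% for CDH4 and 53.6% for the upstream ACTA2 start. The matches describe letters in these windows, and the fold changes hold no measurement of binding or promoter use.

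The count of 5 positive genes among the 6 has to be read against the table, in which 74.3% of the genes (501 of 674) were positive in column x and 74.3% in column y. An absolute log2 fold change of 4 or more (16-fold) was held by 2 of the 6, CD44 and COL1A1, in column x, against 7.57% of all listed genes, and by 3, COL26A1, COL1A1 and CD44, in column y, against 22.0%. The members were chosen with these values known, so the shares describe the choice.

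Among the 501 positive genes ordered by the mean of both columns, COL1A1 took place 16, CD44 place 26, COL26A1 place 30, CDH4 place 114 and ACTA2 place 173. FN1 took place 67 of the 173 negative genes. The place of CD44 was 20 in column x and 53 in column y, that of COL26A1 was 54 and 21, and that of ACTA2 was 295 and 121. COL1A1, at places 23 and 25, and CDH4, at 125 and 130, kept nearly the same place in both columns. FN1 stood at place 78 of the negative genes in column x and 62 in column y.

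**Figure D2:**
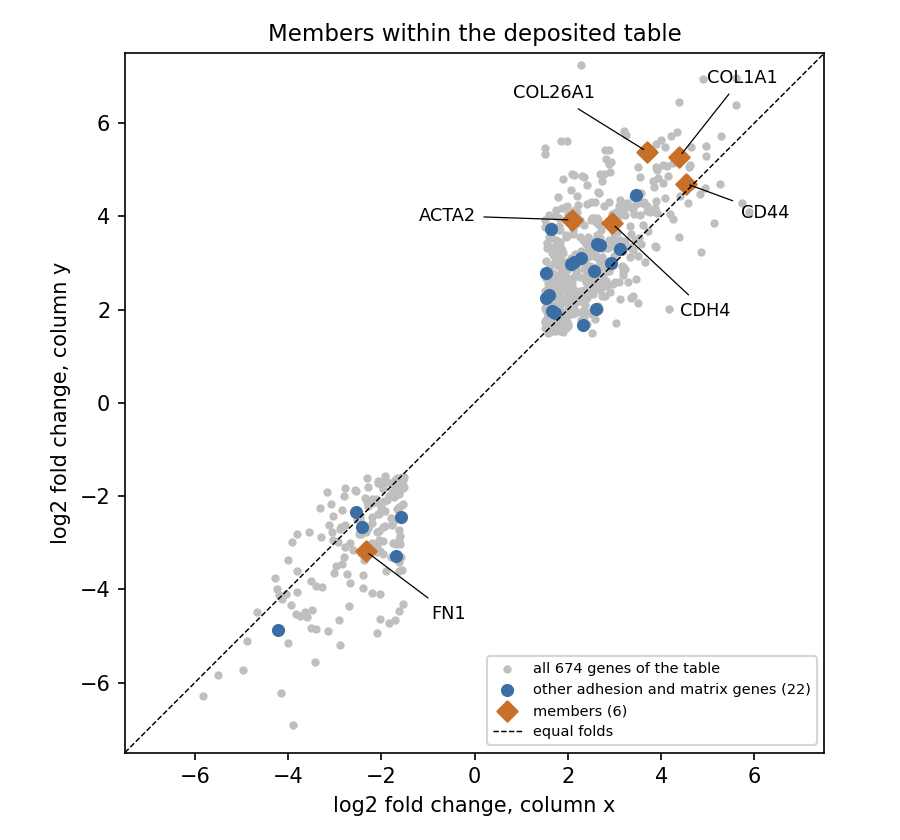
Log2 fold change in column y (y axis) against column x (x axis) of the authors' deposited table for all 674 genes (grey), with the 6 members as diamonds, 22 other adhesion and matrix genes as blue circles and the line of equal folds dashed. CD44 lies close to the line, ACTA2 and COL26A1 lie farther above it, and FN1 lies among the negative genes.

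All 6 members had their larger fold, by size, in column y, as did 76.7% of the listed genes. The gap between the absolute values in the authors' deposited table was 0.17 for CD44, 0.84 for FN1, 0.88 for COL1A1, 0.90 for CDH4, 1.68 for COL26A1 and 1.83 for ACTA2. Written as a ratio of folds, the fold in column y was 1.13 times that in column x for CD44 and 3.56 times for ACTA2. FN1, COL1A1 and CDH4 lay close together, between 1.79 and 1.87 times, although FN1 has the other sign. A gap above 1 (2-fold) was held by COL26A1 and ACTA2, against 24.9% of all listed genes. The median gap in the authors' deposited table was 0.89 for the members, 0.47 for all listed genes and 0.31 for the 480 protein-coding genes among them. Without errors, none of these gaps can be told from the spread between libraries.

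**Figure D3:**
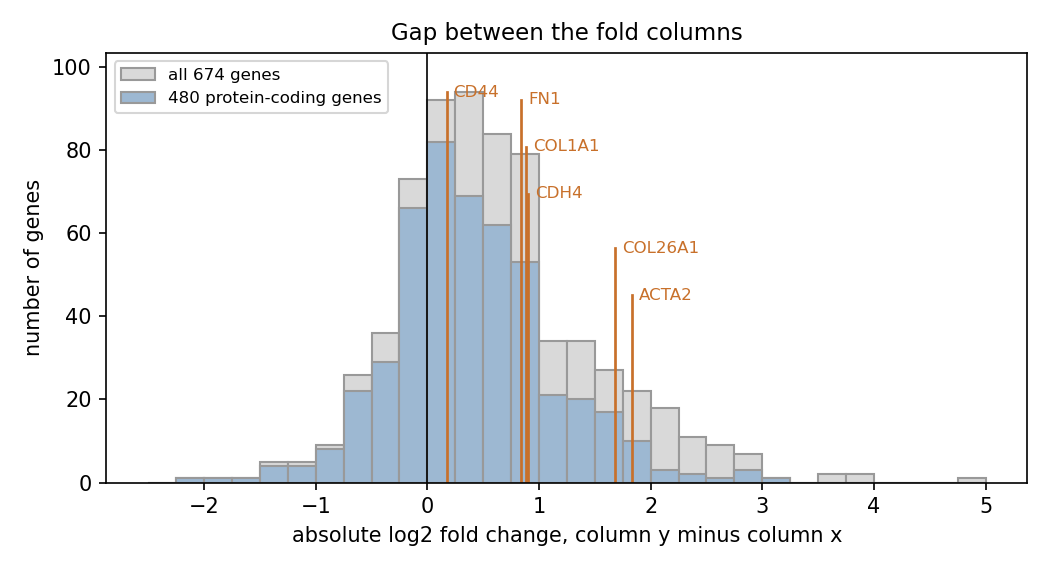
Number of genes (y axis) by the absolute log2 fold change of column y minus that of column x (x axis), for all 674 genes of the authors' deposited table (grey) and the 480 protein-coding ones (blue); vertical lines mark the 6 members and their heights carry no value. CD44 lies near 0, FN1, COL1A1 and CDH4 lie between 0.84 and 0.90, and COL26A1 and ACTA2 lie above 1.

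For each member the protein-coding gene with the most similar values, out of 473 with a proper symbol, was found by the Euclidean distance over the log2 fold changes in columns x and y, given in that order. The nearest to CD44 was PASD1 (4.54 and 4.83 in the authors' deposited table, distance 0.13). COL1A1 was nearest to ZNF875 at a distance of 0.20, CDH4 to the actin-like gene ACTL8 at 0.20, and ACTA2 to SERPING1, which encodes the C1 inhibitor of complement, at 0.13. COL26A1 had the most distant neighbour, GBP5, an interferon-induced GTPase gene, at 0.38. FN1 was nearest to SOCS1, a feedback inhibitor of cytokine signalling (-2.44 and -3.22 in the authors' deposited table, distance 0.11). With 2 values per gene, such likeness is a description of position in the table.

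ACTA2 lies beside FAS, the death receptor gene, which is also in the table, with 2.37 and 2.66 (authors' deposited table). In the GENCODE release 29 annotation, FAS is read from the opposite strand, and the most upstream ACTA2 exon overlaps the start of FAS. Of the 2976 exon bases of ACTA2, 380 (12.8%) overlap exons of FAS and 516 (17.3%) overlap exons of the antisense RNA ACTA2-AS1, which is not among the 674 genes. Whether the counting used strand is not stated in these sources. If it did not, reads from these bases cannot be assigned to ACTA2 by position, and their part in its value was not tested. In the authors' deposited table the gap between columns was 1.83 for ACTA2 and 0.29 for FAS. ACTA2 had 2.09 in column x, close to FAS, and 3.92 in column y. Whether shared reads enter either value was not tested.

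**Figure D4:**
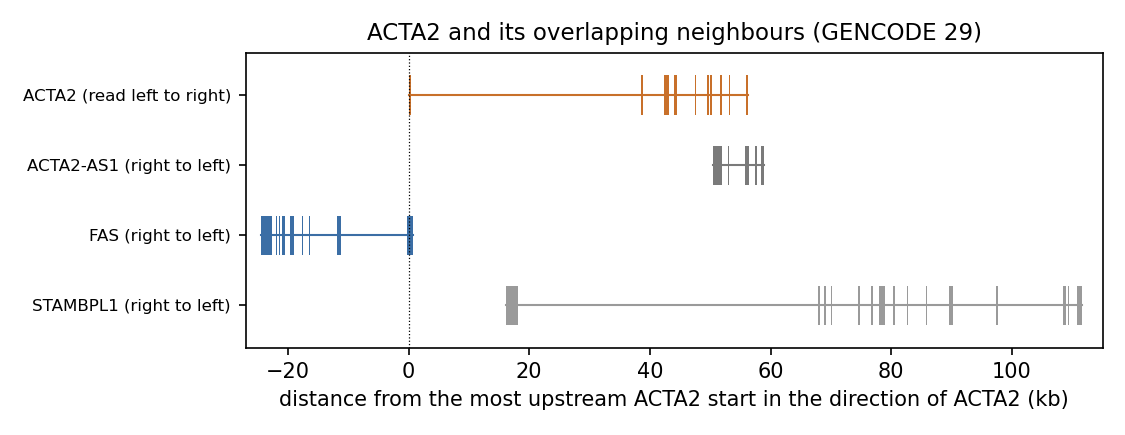
Exons (blocks, widened where they would be too narrow to see) of ACTA2 and of the genes that overlap it in GENCODE release 29, by distance in kb from the most upstream ACTA2 start in the direction in which ACTA2 is read. FAS overlaps the upstream exon of ACTA2, ACTA2-AS1 overlaps its downstream exons, and STAMBPL1 overlaps its introns.

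The other members were freer of overlap. COL1A1, COL26A1, CDH4 and FN1 shared 0 exon bases with other annotated genes, and CD44 shared 84 of 10004 (0.84%) with CD44-AS1. In exact matches of 100-base windows of the longest coding transcript, COL1A1, COL26A1, CDH4, FN1 and CD44 had 0 windows in common with transcripts of other genes on either strand. ACTA2 shared 291 of 1250 windows (23.3%), all with ACTA2-AS1, and none with another actin gene. The 1349-base ACTA2 transcript used lacks the upstream exon that overlaps FAS, so these windows could not show sharing with FAS.

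Within the body of COL26A1 the annotation places the processed pseudogene AC004965.1 on the opposite strand, with no exon base in common. It was also in the table, at 1.52 in column x and 5.46 in column y of the authors' deposited table, a gap of 3.95 where that of COL26A1 was 1.68. Beside COL1A1, at 7.31 kb on GENCODE's GRCh38, lay the long non-coding RNA gene AC015909.1, with 2.30 and 3.05 (authors' deposited table). CD44, CDH4 and FN1 had 0 other listed genes within 1 Mb.

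For the genes that follow, a pair of values is the log2 fold change in column x and then in column y. The wider set held 12 lists of adhesion and matrix genes, with 514 protein-coding genes found by symbol in GENCODE release 29, of which 28 (5.45%) were in the table, the 6 members included. Among all annotated protein-coding genes the share was 2.41% (480 of 19951), which counts genes whether or not K562 cells express them and so shows no enrichment. Of the 28 genes, 22 were positive and 6 negative (78.6% positive, against 74.3% of the table). Without the members, 17 of 22 (77.3%) were positive, close to the background. Column y held the larger fold for 25 of the 28 genes, against 76.7% of all listed genes, with FREM1, PLOD2 and ADAM8 as the exceptions. The median gap in the authors' deposited table was 0.75, against 0.47 over all listed genes. The 28 genes are all protein-coding. Over the 480 protein-coding genes of the table the median gap was 0.31, and column y held the larger fold for 344. Without the members, column y held the larger fold for 19 of 22, and the median gap was 0.70.

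Collagens were the list with the most genes in the table, 5 of 44 (11.4%), against 2.41% of all annotated protein-coding genes. As above, that shows no enrichment, and COL1A1 and COL26A1 were among the 5 by choice. All 5 were positive, as were 74.3% of the listed genes. COL5A1, a minor fibrillar collagen chain that is built into type I fibres, had 1.64 and 3.73 (authors' deposited table), a wider gap (2.09) than any of the 6 members. COL14A1, which binds the surface of collagen fibres, had 2.93 and 2.99 (authors' deposited table), and COL9A2, a collagen IX chain known from cartilage, had 1.65 and 1.97. COL1A2, the partner chain of COL1A1 in type I collagen, was not among the 674 genes. The median log2 fold change of the 5 collagens in the authors' deposited table was 2.93 in column x and 3.73 in column y. Over the 501 positive genes it was 2.28 and 2.92. COL1A1 and COL26A1 were chosen with their values known. Among the other collagens, COL14A1 exceeded these medians in both columns, COL5A1 in column y alone and COL9A2 in neither.

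Genes that modify or cut collagen and matrix had mixed signs. PLOD2, a lysyl hydroxylase that prepares collagen for cross-linking, was the sole listed gene of the collagen processing list, and the authors' deposited table gave it -2.55 and -2.34. In the authors' deposited table PLAU, the urokinase-type plasminogen activator, had -1.70 and -3.29, while PLAT, the tissue-type activator, had 2.56 and 2.82. PLAU shares 31.1% of its exon bases with C10orf55 on the opposite strand, so its value carries the same strand limit as that of ACTA2. For TIMP3, an inhibitor of matrix metalloproteinases, the authors' deposited table held 1.54 and 2.25, and for ADAM8, a membrane protease of leukocytes, 2.33 and 1.66.

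Other structural matrix genes were few. FRAS1 and FREM1, basement membrane proteins that act in the same complex, had values in the authors' deposited table of 2.62 and 3.40 for FRAS1 and 2.61 and 2.01 for FREM1. TSPEAR, the other gene of the glycoprotein list, had the sign opposite to FN1, and the authors' deposited table held 2.14 and 3.03 for it. According to the authors' deposited table GPC6, a glypican, had 1.52 and 2.78, and TGFBR3, the betaglycan co-receptor of TGF-beta, had -2.42 and -2.66. TSPEAR shares 8.34% of its exon bases with genes on the opposite strand and GPC6 7.36%, so both carry the strand limit too. The antisense genes that overlap TSPEAR are themselves among the 674 genes, while the gene that overlaps GPC6 is not.

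Among receptors, ITGA2B, the alpha chain of the platelet integrin that binds fibrinogen and fibronectin, had 3.46 and 4.45 (authors' deposited table). ITGAM, the alpha chain of the leukocyte integrin Mac-1, was negative, and the authors' deposited table held -1.58 and -2.44. For ITGBL1, a secreted protein that resembles integrin beta chains, the authors' deposited table held 3.12 and 3.29, but 70.5% of its exon bases overlap FGF14 on the opposite strand. FGF14 itself had 1.96 and 3.02 (authors' deposited table), so the values of ITGBL1 and FGF14 are uncertain where strand was not used. DDR2, a kinase that fibrillar collagens activate, had 1.60 and 2.30 (authors' deposited table).

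In the authors' deposited table the endothelial junction protein gene ESAM had 2.27 and 3.10, and LRRC4B, a synaptic adhesion gene, had 2.69 and 3.39. Beside CDH4, the cadherin list held the protocadherin genes PCDHGB2 (2.06 and 2.97) and PCDHGA4 (1.73 and 1.93) with positive values in the authors' deposited table. They share 2181 exon bases with the rest of the gamma cluster, 45.7% and 44.6% of their own, so their reads can be split or shared among its genes. The classical cadherin genes CDH1 and CDH2 were not among the 674 genes.

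**Figure D5:**
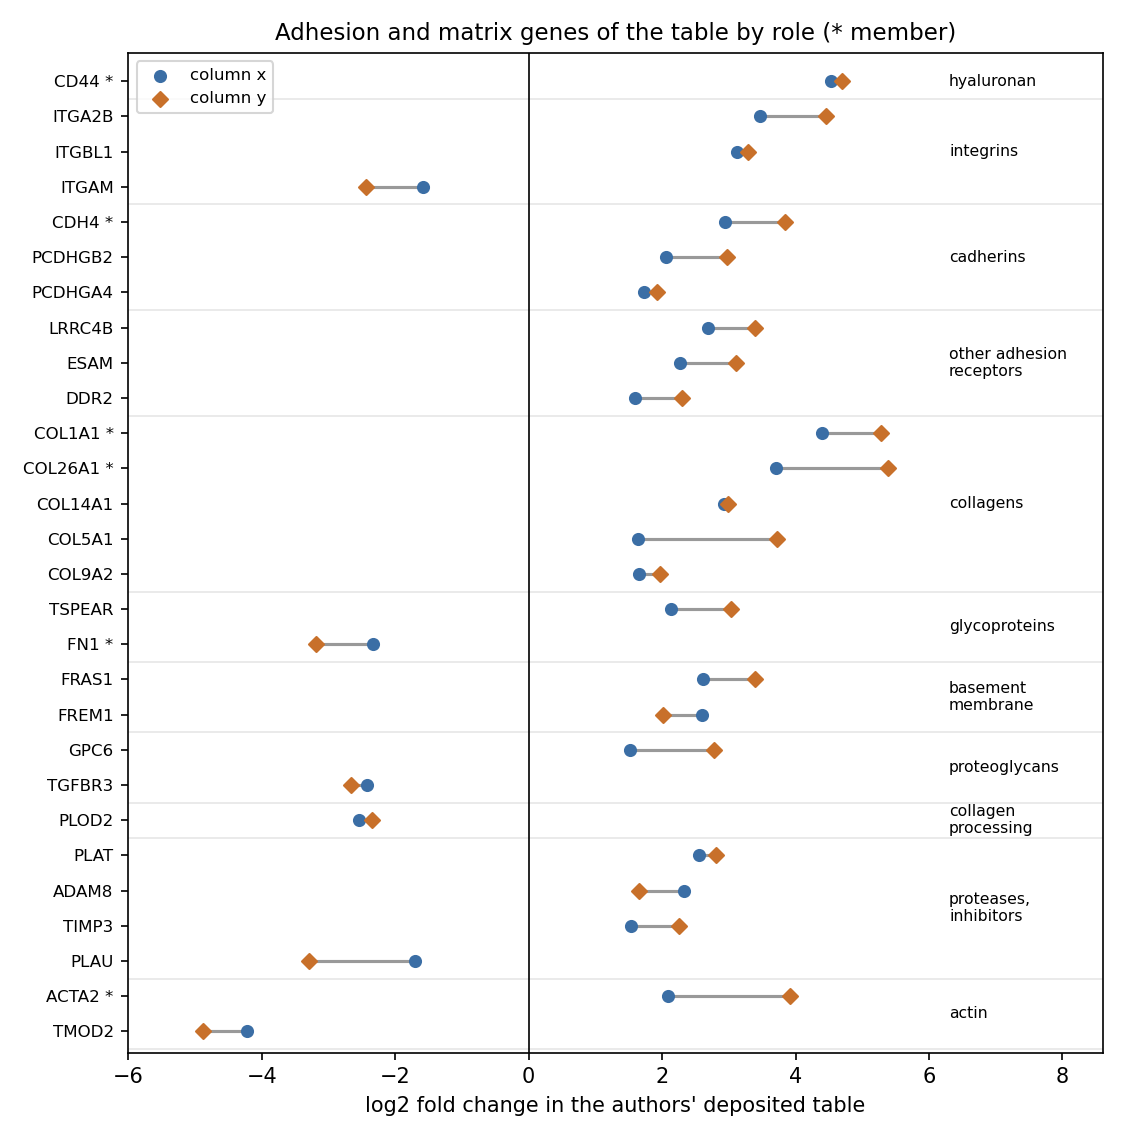
Log2 fold changes (x axis) of the 28 adhesion and matrix genes of the authors' deposited table, grouped by role, in column x (circles) and column y (diamonds); an asterisk marks a member. The collagens, cadherins and other adhesion receptors lie on the positive side, and ITGAM, FN1, TGFBR3, PLOD2, PLAU and TMOD2 on the negative side.

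The hyaluronan list had CD44 as its sole gene in the table, of 21, and none of the hyaluronan synthase genes HAS1, HAS2 and HAS3 was listed. The actin list held ACTA2 and TMOD2, a tropomodulin that caps the slow-growing end of actin filaments, for which the authors' deposited table held -4.23 and -4.88. The list of TGF-beta and mesenchymal regulators, among them SNAI1, SNAI2, TWIST1, ZEB1, TGFB1 and SRF, had 0 of 29 genes in the table. The TGF-beta co-receptor gene TGFBR3, which is in the table, was counted with the proteoglycans, so this 0 depends on how genes were assigned. The share of all annotated protein-coding genes in the table was 2.41%. A gene outside the table may have changed in neither or in a single comparison, or may lack a call for another reason.

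COL1A1 and ACTA2 are also markers of fibroblasts and smooth muscle cells. COL1A1 was the sole listed gene of 11 fibroblast markers, and COL1A2, COL3A1, DCN, LUM, PDGFRA, PDGFRB, THY1, FAP, DPT and POSTN were not listed. ACTA2 was the sole listed gene of 8 smooth muscle markers, with TAGLN, CNN1, MYH11, MYL9, LMOD1, DES and SMTN not listed. The endothelial list had 0 of 5. Of all annotated protein-coding genes 2.41% were in the table, so lists this short may hold few listed genes or none. COL1A1 and ACTA2 were there as chosen members. The levels of these markers were not used here, and their part in the values of COL1A1 and ACTA2 was not tested.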

How the data were processed

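RNA from 6 K562 libraries, 2 each of IR1, IR2 and WT, was sequenced. The authors deposited log2 fold changes for 674 genes in 2 columns, pooled over libraries, so depth and precision are unknown. Tools named, per the submitters' processing notes, are DESeq2 3.5, Subread, featureCounts and HISAT2 2.1.0, with the human build hg19. What each did, and its settings, strand use included, is not stated in these sources. The planned count model could not be run, and values are described with no test.

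Gene symbols were matched for 654 of the 674 identifiers through a name table and otherwise through GENCODE release 29 (GRCh38), which held 657 and also gave gene type, strand, exon overlap and distance. Python 3.11.15 with pandas 2.3.3, NumPy 2.4.6 and matplotlib 3.10.9 was used. Motif matching was tested on simulated sequences. Named genes are the 6 members, all listed genes of the 12 lists and the nearest protein-coding gene to each member. The overlapping or adjacent genes FAS, FGF14, AC004965.1 and AC015909.1 were added after their values were seen. The erythroid marker list is not reported here. The members and lists were chosen with earlier results of these data known.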

Additional observations from a re-analysis of the deposited data

How the results depend on the processing

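No paired analysis was possible because the table holds no values per library; for the same reason leaving out a replicate, the count models and the low-count filter were not run. When genes under 2 in absolute log2 fold change in either column were left out, 5 members stayed positive, and the background was 74.6% positive, or 73.3% over protein-coding genes. The wider lists then had 15 positive genes (78.9%). The mean gap between columns in place of the median was 1.05 for the members and 0.68 for the lists, and the median gap of the lists with the minimum of 2 was 0.78. Places depended on the order used. By the smaller absolute value of the 2 columns, CD44 took place 14, COL26A1 place 48 and ACTA2 place 274. Among protein-coding genes alone, CD44 took place 13, COL1A1 place 7, COL26A1 place 15, CDH4 place 53 and ACTA2 place 92. That order held 352 positive genes in place of 501. The unknown numerator and column identity limit every value to its size and its sign within the table.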
